A study of Mus musculus with 3 samples.

Results

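Glycolytic enzymes were followed over single mouse cells as they passed from pluripotency into cardiac cultures. The 10 genes, chosen by name, were Hk2, Gpi1, Pfkl, Pfkp, Aldoa, Tpi1, Pgk1, Pgam1, Eno1 and Ldha, and all 10 were listed in each of the 3 count tables, among 18969 genes that the tables shared. All cells were male F1 cells of a C57BL/6 x CAST/EiJ cross. The mESC sample held embryonic stem cells kept in medium with 2 kinase inhibitors and leukaemia inhibitory factor. The CPCC sample (cardiac precursor cell culture) came from embryoid bodies that were formed with ascorbic acid and then taken apart. Their cells were expanded over several passages with epidermal growth factor and Fgf2. The CB sample (cardiac bodies) did not pass through these cultures but came from stem cell aggregates that were kept floating with ascorbic acid until they contracted, and beating bodies were picked. The counts came from 215 mESC, 175 CPCC and 232 CB cells. Each culture was 1 sample, so differences between cultures have no replicate check and no test was made. The cell names grouped the cells into 3, 2 and 3 pools, and values per pool are given to show the spread within a culture, which holds both technical differences and differences in cell mixture. The mESC sample was labelled a triplicate, but no label tied its pools to separate cultures.

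Glycolysis splits glucose into pyruvate in the cytosol and yields ATP without oxygen. Hexokinase traps glucose in the cell, phosphofructokinase commits the sugar to the pathway, and lactate dehydrogenase turns pyruvate into lactate so that the pathway can run on. Pluripotent cells are known for a high glycolytic rate, whereas mature cardiac muscle relies mostly on oxidative metabolism. Several glycolytic genes are known targets of the hypoxia-inducible factors and of Myc.

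On GRCm38, with the GENCODE M21 annotation, the genes of the first steps were Hk2 (hexokinase 2, chromosome 6, 82725025 to 82774454) and Gpi1 (glucose phosphate isomerase, chromosome 7, 34201330 to 34230336), which rearranges the hexokinase product. The phosphofructokinase step was represented by Pfkl, the liver type (chromosome 10, 77986947 to 78010083), and Pfkp, the platelet type (chromosome 13, 6579768 to 6648777). Aldoa, aldolase A (chromosome 7, 126795234 to 126800751), splits the sugar, and Tpi1 (chromosome 6, 124810586 to 124814296) interconverts the 2 triose phosphates. For the later steps, Pgk1 (phosphoglycerate kinase, chromosome X, 106187100 to 106203699), Pgam1 (phosphoglycerate mutase, chromosome 19, 41911923 to 41918660) and Eno1 (enolase 1, chromosome 4, 150236721 to 150248879) were measured. Ldha, the A subunit of lactate dehydrogenase, lies on chromosome 7 from 46841475 to 46855627. All 10 are annotated as protein coding.

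The promoters are shown because the genes moved together over cells, as described further on. Whether promoter and co-variation are linked was not tested. The letters ACGTG form the core of the site that hypoxia-inducible factors bind and overlap the E-box CACGTG, which Myc and related factors bind. Searched on both strands in the 250 bases before each RefSeq transcript start (GRCm38.p6), ACGTG was present for 5 of the 10 genes, namely Hk2, Aldoa, Pgk1, Pgam1 and Ldha. For Aldoa it lay only before starts 1497 and 1573 bases inside the GENCODE gene, and not before the RefSeq start closest to the GENCODE one. For Ldha it lay only before a start 4329 bases inside the gene, and not before the other RefSeq start. Of all 27025 genes with such a window, 18.5% held it. The 160 bases before the start are printed for Ldha (the start with matches), which had the most matches (5, of which 4 fall on 2 palindromic CACGTG), for Pgk1, which had 2, and for Gpi1, which had none. Capitals mark the matches.
Ldha, chr7:46845644-46845803, plus strand: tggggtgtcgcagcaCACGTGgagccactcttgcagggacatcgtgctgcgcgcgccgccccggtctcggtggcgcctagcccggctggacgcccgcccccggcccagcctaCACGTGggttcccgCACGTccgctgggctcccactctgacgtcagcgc
Pgk1, chrX:106186940-106187099, plus strand: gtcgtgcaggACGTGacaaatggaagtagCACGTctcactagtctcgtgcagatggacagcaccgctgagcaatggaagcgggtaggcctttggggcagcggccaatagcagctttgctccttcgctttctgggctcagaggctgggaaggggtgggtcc
Gpi1, chr7:34230337-34230496, minus strand: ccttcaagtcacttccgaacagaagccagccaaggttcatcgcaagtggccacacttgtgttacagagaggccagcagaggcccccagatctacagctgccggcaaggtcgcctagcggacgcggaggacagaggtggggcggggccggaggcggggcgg
A match is a description of letters and not evidence that a factor was bound.

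Cells were deep, with medians of 1528316 (mESC), 1437414 (CPCC) and 1397869 (CB) counts per cell, although single cells ranged from 4 to 8105511. No cell name was shared between the samples. The labels called the CB cells mature cardiac cells, yet the summed level of 12 cardiomyocyte markers was 314, 1288 and 23.3 CPM (counts scaled to a total of 1000000 over the genes) in the 3 CB pools, against 14719, 520 and 15807 CPM for 10 fibroblast markers. The pools of a culture therefore held different mixtures of cells. CPCC pool 1 carried 5693 CPM of pluripotent markers and pool 2 carried 1242 CPM, while macrophage markers were at 16.9 and 5185 CPM. The part of these mixtures in the levels given below was not tested, except where levels are given within clusters.

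The 10 genes together were lowest in CB. They were highest in mESC by summed counts, but the median over cells was 7475 CPM in mESC and 7528 CPM in CPCC. Counts summed over all cells put their joint level at 9205 CPM for mESC, 7981 CPM for CPCC and 5624 CPM for CB, which was 0.920%, 0.798% and 0.562% of all gene counts. By pool, the sums were 6349, 9386 and 12021 CPM in mESC, 7185 and 8726 CPM in CPCC, and 4363, 6303 and 5547 CPM in CB. The CB pools thus lay below all other pools, CB pool 2 by little, whereas the CPCC pools were inside the range of the mESC pools. Per length of transcript, and without the near-identical copies described further on, Aldoa was the most abundant in mESC (1799 CPM per kb). Ldha (1117) and Pgam1 (787) followed. In CPCC and in CB, Ldha came first (1458 and 962 CPM per kb), ahead of Aldoa (1056 and 654) and Tpi1 (610 and 595). Hk2 and the 2 phosphofructokinases were the least abundant in all 3 cultures, with 7.28 to 78.2 CPM per kb.

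**Figure D1:**
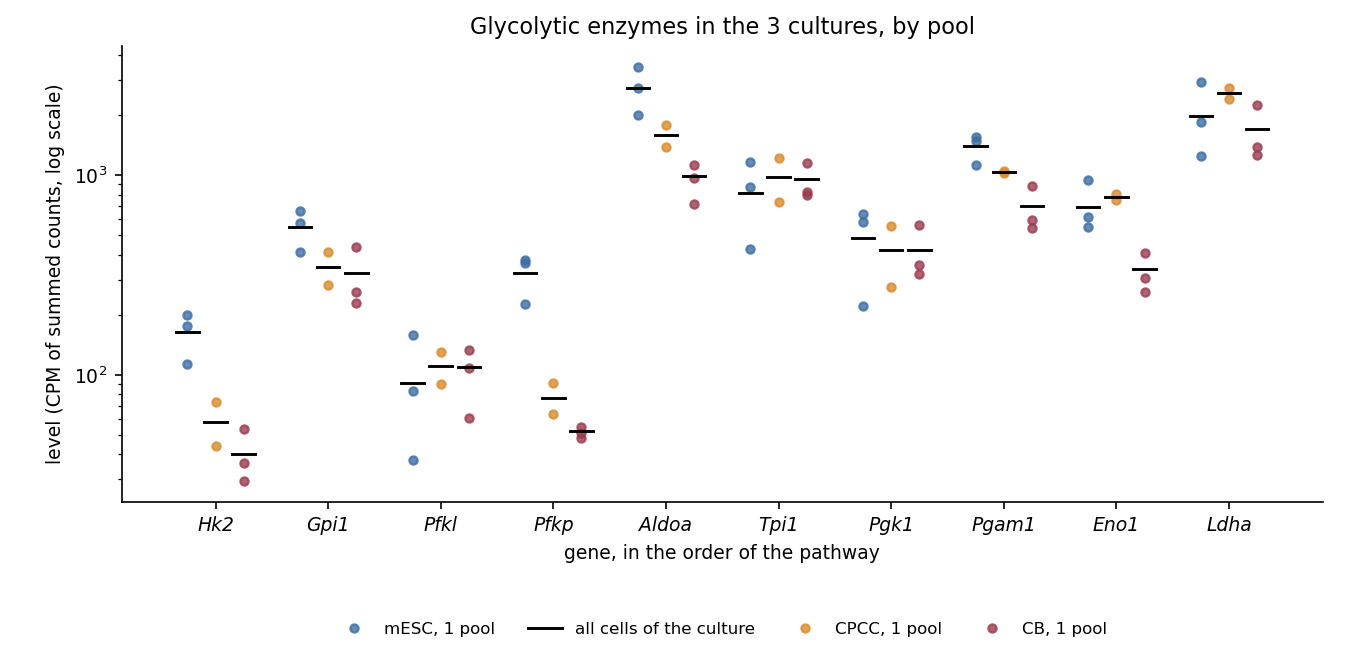
Level of each gene (y axis, CPM of summed counts, log scale) in mESC (blue), CPCC (orange) and CB (red), where points are pools and black bars are all cells of a culture. Hk2 and Pfkp stood clearly higher in all mESC pools than in any CPCC or CB pool, Aldoa and Pgam1 stepped down from mESC to CPCC to CB, and the pools of Pfkl, Tpi1, Pgk1 and Ldha overlapped between mESC and the other cultures.

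The comparison of CPCC with mESC asked how the pathway differed between stem cells and a precursor culture, of which part still carried pluripotent markers. Hk2 and Pfkp, which serve the early regulated steps, were lower by more than 2-fold in CPCC, and no gene was higher by that much. Pfkp was measured at 225, 364 and 378 CPM in the mESC pools and at 90.6 and 63.4 CPM in the CPCC pools. Summed over cells it was 324 CPM in mESC and 76.6 CPM in CPCC, 4.19-fold lower (log2 ratio -2.07). Hk2 was at 113, 176 and 200 CPM in the mESC pools and at 73.4 and 44.2 CPM in the CPCC pools, 2.76-fold lower over all cells (log2 ratio -1.47). For both genes every CPCC pool lay below every mESC pool. Among 12822 genes tested, meaning that both tables listed them and that 25% or more of cells had a count in the culture where the gene was higher, 7.63% were lower and 12.8% were higher by 2-fold or more.

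Aldoa and Pgam1 were lower in CPCC by less than 2-fold, again with no overlap between pools. Aldoa was at 2001, 2719 and 3487 CPM in the mESC pools and at 1391 and 1788 CPM in the CPCC pools. Its per-cell median was 2304 CPM in mESC (quartiles 1695 and 3032, 203 cells) and 1493 CPM in CPCC (quartiles 1043 and 2197, 169 cells). Pgam1 was at 1121, 1555 and 1482 CPM against 1049 and 1024 CPM. The other 6 genes had pools that overlapped. Ldha (log2 ratio 0.38), Pfkl (0.28), Tpi1 (0.27) and Eno1 (0.17) were nominally higher in CPCC, while Gpi1 (-0.65) and Pgk1 (-0.20) were nominally lower. The sign of Pgk1 turned (0.14) when every cell had the same weight. The median log2 ratio of the 10 genes was -0.32, beside -0.09 for all genes tested, and with the same weight per cell it was -0.06 beside -0.05. It was below 0 in 4 of 6 pairs of single pools (range -1.01 to 0.23), so a shift of the pathway as a whole between these cultures was within the spread of pools.

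CB cells carried less glycolytic RNA than mESC cells for 5 of the 10 genes by 2-fold or more, and none was higher by that much. Pfkp was at 48.1, 51.0 and 55.0 CPM in the CB pools, 6.12-fold below mESC over all cells (log2 ratio -2.61). Hk2 was at 36.3, 53.5 and 29.4 CPM, 3.98-fold lower (-1.99). Aldoa was at 714, 968 and 1125 CPM, 2.75-fold lower (-1.46), and its per-cell median was 742 CPM (quartiles 400 and 1263, 219 cells). These 3 genes kept more than 2-fold in each alternative run. Eno1, at 260, 409 and 305 CPM in CB against 547, 617 and 942 CPM in mESC (log2 ratio -1.03), and Pgam1, at 541, 880 and 598 CPM in CB (-1.0), lay at the threshold. Without CB pool 1, without CB pool 3 or without mESC pool 3 both were within 2-fold, so that 3 genes remained past it. Pgam1 was also within 2-fold without mESC pool 2. For all 5 genes, no CB pool reached the lowest mESC pool.

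The other 5 genes did not separate between CB and mESC. Tpi1 was at 827, 800 and 1156 CPM in the CB pools and at 425, 868 and 1160 CPM in the mESC pools (log2 ratio 0.23). Ldha was at 1261, 2243 and 1391 CPM in CB and at 1249, 1848 and 2913 CPM in mESC (-0.22). Pfkl (0.27), Pgk1 (-0.21) and Gpi1 (-0.76) also had overlapping pools. The median log2 ratio of the 10 genes was -0.88, below 0 in 9 of 9 pairs of pools (-1.42 to -0.37), beside -0.08 for the 11695 genes tested. Of those genes, 17.1% were lower and 21.0% higher by 2-fold or more, so that 55.1% of the genes past 2-fold were higher. TMM factors placed the balance at 44.4% and moved the median of all genes by -0.16. The glycolytic median was then -1.10, still 0.85 log2 units below that of all genes, as compared with 0.80 in the main scaling.

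Between CB and CPCC the summed levels of all 10 genes were lower in CB, or of 8 when mitochondrial and the 20 most abundant genes were left out of the total, and Eno1 alone passed 2-fold. Eno1 was at 806 and 750 CPM in the CPCC pools and at 260, 409 and 305 CPM in the CB pools, 2.30-fold lower (log2 ratio -1.20). Ldha was at 2397 and 2743 CPM in CPCC and thereby above each CB pool (-0.60). Aldoa (-0.69), Pgam1 (-0.57) and Pfkp (-0.55) likewise had no overlap between pools. For Hk2 (-0.53), Gpi1 (-0.11), Tpi1 (-0.04), Pfkl (-0.01) and Pgk1 (0.00) the pools overlapped. With those genes left out of the total, Pfkl and Pgk1 were both at 0.01. The median of the 10 genes was -0.54, below 0 in 6 of 6 pairs of pools (-0.91 to -0.28), beside 0.01 for the 11428 genes tested. By 2-fold or more, 9.61% of those genes were lower and 11.9% higher, and the share of higher genes among them was 55.3%, or 40.2% with TMM and 42.8% with DESeq2 factors. At a threshold of 1.5-fold, 4 of the 10 genes were lower in CPCC than in mESC, 6 in CB than in mESC and 3 in CB than in CPCC, beside 19.0%, 29.0% and 20.4% of all genes, and 0 were higher, beside 20.9%, 29.4% and 22.6% of all genes. All 3 comparisons share samples, so their values are not independent of each other. Exact Poisson intervals (95%) were narrow, for example 39.5 to 40.8 CPM for Hk2 in CB, but cover counting error only and say nothing of the spread between cultures.

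Several of these enzymes have retrocopies in the mouse genome that are almost the same in sequence, and the tables give counts to both. How reads that match gene and copy were assigned is not given in the sources used here. Near-identical copies were taken as annotated genes whose transcript matched the transcript of one of the 10 over at least 300 bases at 90% identity or more. For Eno1 the copies held most of the counts. The gene itself was at 691, 777 and 338 CPM in mESC, CPCC and CB, whereas Eno1b, a retrogene with 99.5% identity over 1736 bases, was at 2661, 2684 and 1096 CPM, and the processed pseudogene Gm4735 (99.6% over 1302 bases) at 1444, 1583 and 584 CPM. In sum, copies held 85.6%, 84.6% and 83.3% of the enolase 1 counts in mESC, CPCC and CB. The level of Eno1 alone is therefore uncertain, and so is its rank among the 10 genes. With copies added to each gene, Eno1 had the most counts of the 10 in each culture, at 4806, 5051 and 2022 CPM.

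For Pgk1 the copies Pgk1-rs7 and Gm5537, identical to it over 1255 and 1252 bases, brought the copies to 55.9%, 57.5% and 49.1% of the sum. For Gpi1, Gm1840 held 29.1%, 30.1% and 29.9%, and for Pgam1 the copies, chiefly Pgam1-ps2, held 21.7%, 20.2% and 19.4%. For Ldha, Aldoa and Tpi1 the copies held no more than 3.14%, and Hk2, Pfkl and Pfkp had none. The share of copies changed little between cultures, so adding them left the comparisons as they were, with medians of -0.30, -0.89 and -0.54 and the same counts of 2, 5 and 1 genes past 2-fold. With copies, Eno1 was lower in CB by a log2 ratio of -1.25 against mESC and -1.32 against CPCC. Pgk1 changed more, to -0.42 against mESC and -0.27 against CPCC. Pfkp overlaps its neighbour Pitrm1 on the opposite strand over 748 bases, and whether the counting used strand is not given in the sources used here, so some of its counts cannot be told from those of Pitrm1.

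**Figure D2:**
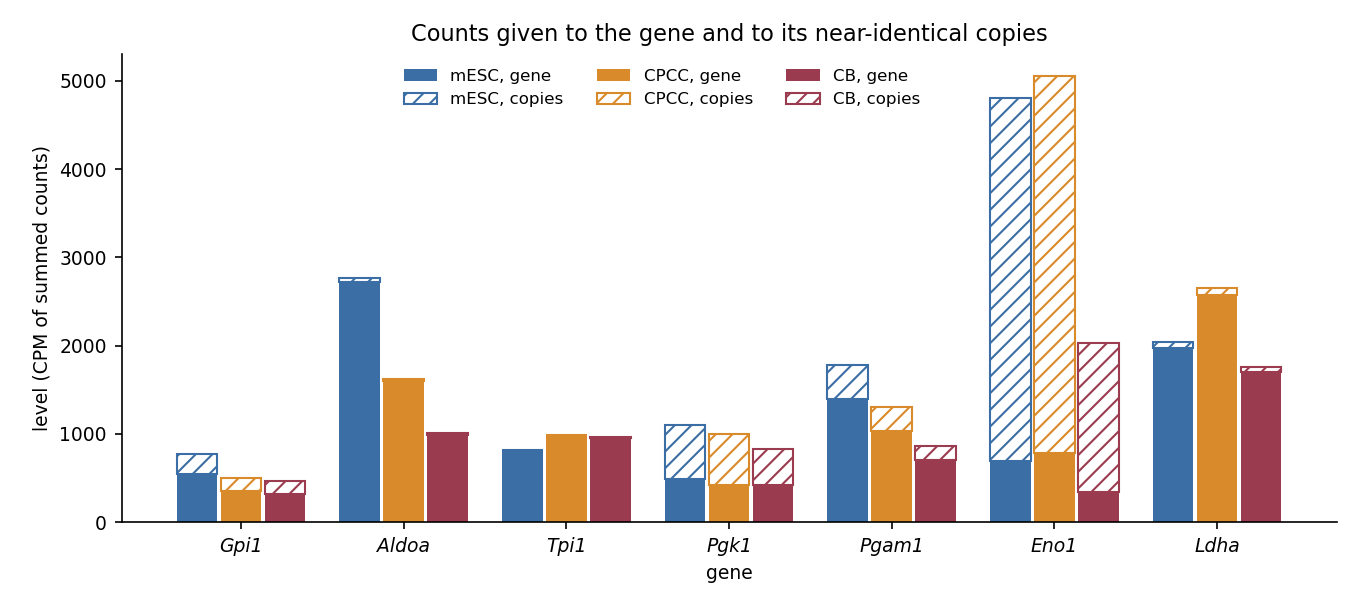
Counts (y axis, CPM of summed counts) given to 7 of the genes (solid) and to their near-identical copies (hatched), stacked, in mESC (blue), CPCC (orange) and CB (red). Copies held 83.3% to 85.6% of the sum for Eno1 and 49.1% to 57.5% for Pgk1, while Aldoa, Tpi1 and Ldha had almost none.

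The make-up of the phosphofructokinase step differed between mESC and the cardiac cultures. Pfkp, the platelet type, made up 72.2% of the level per kb of the 3 isozymes in mESC, 33.9% in CPCC and 25.9% in CB. By pool its share was 76.9%, 76.4% and 65.2% in mESC, 43.2% and 26.3% in CPCC, and 32.4%, 25.9% and 24.1% in CB, so no pool of the cardiac cultures came near the mESC pools. Pfkl, the liver type, made up 22.6%, 54.5% and 60.8% in the 3 cultures, and Pfkm, the muscle type, 5.17%, 11.6% and 13.3%. Over all cells the level of Pfkl was 24.4, 29.7 and 29.5 CPM per kb, but its mESC pools were far apart, at 37.4, 83.1 and 159 CPM. The log2 ratio of Pfkl between CPCC and mESC was 0.81 without mESC pool 3 and 0.70 with the same weight per cell, so Pfkl added to the difference in share in those settings. The same was seen cell by cell. Among cells with at least 100000 counts, Pfkp was above Pfkl per kb in 183 of 203 mESC cells (90.1%), in 55 of 169 CPCC cells (32.5%) and in 50 of 219 CB cells (22.8%). Thinned to 430000 counts per cell, these shares were 89.6%, 32.5% and 23.3%.

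At the hexokinase step Hk2, the inducible form, made up 72.4%, 59.9% and 50.3% of the level per kb in mESC, CPCC and CB, and Hk1, the widely expressed form, 26.0%, 25.3% and 38.2%. The pools of CPCC disagreed. Hk2 held 83.0% in pool 1 and 41.8% in pool 2, where Hk3, an isozyme known from blood cells, held 23.8% beside 5185 CPM of macrophage markers. In CB the share of Hk2 was 43.2%, 62.9% and 40.4% by pool. Both Hk2 and Hk1 were lower in CPCC than in mESC (Hk1 at 40.9, 17.2 and 21.3 CPM in mESC, CPCC and CB), with log2 ratios of -1.20 for Hk1 in CPCC and -0.91 in CB. Copies aside, the other steps were served mainly by the gene named here. Aldoa made up at least 97.8% of the aldolases, Pgam1 at least 98.1% of the mutases, Ldha 92.4%, 91.3% and 89.1% beside Ldhb, the heart-type subunit. Eno3, the muscle enolase, made up 1.80%, 4.28% and 11.2%, without counting the copies of Eno1. Its level in CB came from 1 pool, at 10.4, 78.8 and 2.85 CPM in the CB pools, 38.6 and 16.2 CPM in the CPCC pools, and 9.36, 7.29 and 13.6 CPM in the mESC pools.

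**Figure D3:**
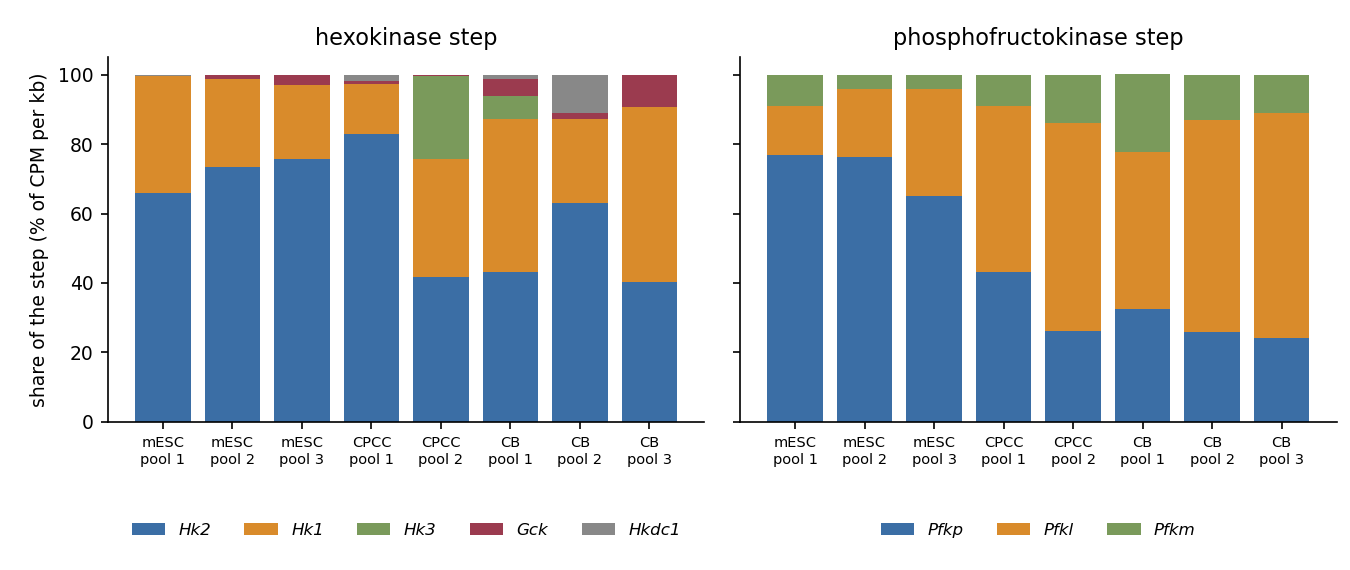
Share of each isozyme (y axis, percent of the summed CPM per kb of the step) in the 8 pools, at the hexokinase step (left) and the phosphofructokinase step (right). Pfkp filled 65.2% to 76.9% of its step in the mESC pools and 24.1% to 43.2% in the others, whereas the hexokinase shares differed as much between pools of 1 culture as between cultures.

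The abundant enzymes were detected in nearly every cell, whereas Hk2, Pfkp and Pfkl had no count in many CB cells. Genes in general were found in fewer CB cells, with a median of 6661 genes per cell in CB, 9532 in mESC and 9252 in CPCC. Over the 11695 genes tested between CB and mESC, the median share of cells with a count was 44.4% in CB and 74.4% in mESC, while over the 10 enzymes it was 92.7% and 97%. The share was lower in CB by 25 percentage points or more for 40.6% of those genes, and for 2 of the 10 enzymes (Hk2 and Pfkp). Ldha had at least 1 count in 215 of 215 mESC cells, 175 of 175 CPCC cells and 226 of 232 CB cells (97.4%, exact binomial interval 94.5% to 99.0%). Hk2 was detected in 96.3% of mESC cells, 94.3% of CPCC cells and 57.8% of CB cells (51.1% to 64.2%). Pfkp was detected in 96.7%, 74.9% and 41.8% (35.4% to 48.4%), and Pfkl in 85.6%, 90.9% and 65.5% (59.0% to 71.6%). Thinned to 430000 counts per cell, the CB shares were 59.5% for Hk2, 41.0% for Pfkp and 64.8% for Pfkl, so they were as low at equal depth. All 10 genes were found together in 87.7% of mESC cells, 74.0% of CPCC cells and 22.4% of CB cells with at least 100000 counts, and in 86.0%, 69.4% and 21.4% after thinning. Neither Pfkp nor Pfkl was found in 0.518%, 4.46% and 23.8% of thinned cells, which were 1 of 193, 7 of 157 and 50 of 210.

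CB cells were also the most unequal. The summed level of the 10 genes per cell had a median of 4286 CPM in CB (219 cells), and the 90th percentile was 6.28 times the 10th. In mESC the median was 7475 CPM and this ratio 3.26, and in CPCC 7528 CPM and 3.39. The ratio was 5.90, 5.17 and 5.24 within the CB pools, 1.97, 3.02 and 4.01 within the mESC pools, and 2.20 and 4.28 within the CPCC pools.

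To see which cells carried the high levels, the cells were clustered on other genes, with the 10 enzymes, their copies and the related pathway genes left out. In CPCC, 9 of the 10 genes (8 by the median over cells, without Hk2) were highest in a cluster of 27 cells led by Fgf8, Ackr4 and Fgf5, where Fgf8 and Fgf5 are signals of the early embryo. The summed level there was 12861 CPM, against 7244 CPM in 73 cells led by Tdh, Nr0b1 and Dnmt3l, which carried 7798 CPM of pluripotent markers, 7564 CPM in 55 cells led by Fbln5, Mgp and Col1a2, and 6745 CPM in 14 macrophage-like cells led by C1qa and Lyz2. Ldha stood at 4078 CPM in the Fgf8 cluster and at 2224, 2632 and 2022 CPM in the others, and Pgk1 at 1022 CPM against 276, 409 and 326 CPM. By summed counts only Pfkp was highest elsewhere, at 108 CPM in the Tdh cluster. Of the 27 cells, 25 came from pool 2. Within pool 2 the summed level was 13614 CPM in the Fgf8 cluster and 9618, 7372 and 6745 CPM in the other clusters, so that cluster was the highest within the pool too, though the gap to the Tdh cluster was smaller there.

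In CB the genes divided between clusters. A cluster of 73 cells led by Car14, Prtg and Sall4, with 2100 CPM of S phase and 2647 CPM of G2M phase markers, was highest for Hk2, Pfkl, Pgk1, Pgam1, Eno1 and Ldha. Its Ldha was at 2329 CPM, against 1418 CPM in 83 fibroblast-like cells (led by Eln, Ogn and Col1a2), 1052 CPM in 44 epithelial-like cells (led by Cyp2f2, Krt4 and Krt15) and 1803 CPM in 19 endothelial-like cells (led by Icam2, Cd93 and Pecam1). The lead of the Prtg cluster was slight for Pgk1 (563 CPM, against 562 CPM in the endothelial-like cells). It was slight for Pfkl too (115 CPM, against 112 CPM in the fibroblast-like cells). By summed counts the fibroblast-like cells were highest for the other 4 genes, Gpi1 (446 CPM, against 242 to 267 CPM in the others), Pfkp, Aldoa and Tpi1. The ranks differed with the measure. By the median over cells the fibroblast-like cells were highest for Gpi1 alone (238 CPM, against 208 to 222 CPM), and the Prtg cluster for 7 genes, with Aldoa added. Hk2 differed the most, from 62.0 CPM in the Prtg cluster to 9.07 CPM in the epithelial-like cells. The summed levels were 6590, 5488, 4370 and 5106 CPM in that order of clusters. Since 51 of the 73 cells of the Prtg cluster were from pool 2, and within pool 1 its sum (4056 CPM) was below that of the fibroblast-like cells (4681 CPM), its rank depended on the pool. With 15 components, or when the 10 genes, their copies and the related genes were not left out, no CB cluster was highest for more than 5 genes.

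Pool 1 stood apart in the mESC clusters. A cluster of 88 cells led by Bnip3 and Fahd1, of which 5 were from pool 1, was at 10548 CPM for the summed genes, and a cluster of 85 cells led by Cdx1 and Id3, of which 80 were from pool 1, at 6596 CPM. The remaining 30 cells, 21 of them from pool 3, were at 10104 CPM with 8.69% of counts from mitochondrial genes, beside 4.55% and 3.28% in the other clusters. Their sum was 11611 CPM in pool 3 and 4892 CPM in pool 2 (7 cells). The median sum per cell was 7006 CPM there, 10008 CPM in the Bnip3 cluster and 6135 CPM in the Cdx1 cluster. By summed counts the 30 cells were highest for Hk2, Pfkl (157 CPM), Eno1 and Ldha, and by the median over cells for Gpi1, Pfkp and Pgk1, so the ranks differed with the measure. Pool 3 put 21 cells in this cluster and 21 in the Bnip3 cluster. Among the 10 genes, Pgk1 (628 against 217 CPM), Tpi1 (1008 against 458 CPM) and Pfkl (94.5 against 44.8 CPM) differed by more than 2-fold between the Bnip3 and Cdx1 clusters. Bnip3, a mitophagy gene induced by hypoxia, moved with them, at 43.8 CPM in pool 1 and at 409 and 347 CPM in pools 2 and 3. The 16 listed hypoxia-linked genes summed to 629, 1340 and 1246 CPM. Culture, handling and library cannot be told apart for a pool. When the 10 genes, their copies and the related genes were not left out of the clustering, 1 cluster of 65 mESC cells was highest for all 10. The cells were then grouped in part on these genes, so this is not an independent result.

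**Figure D4:**
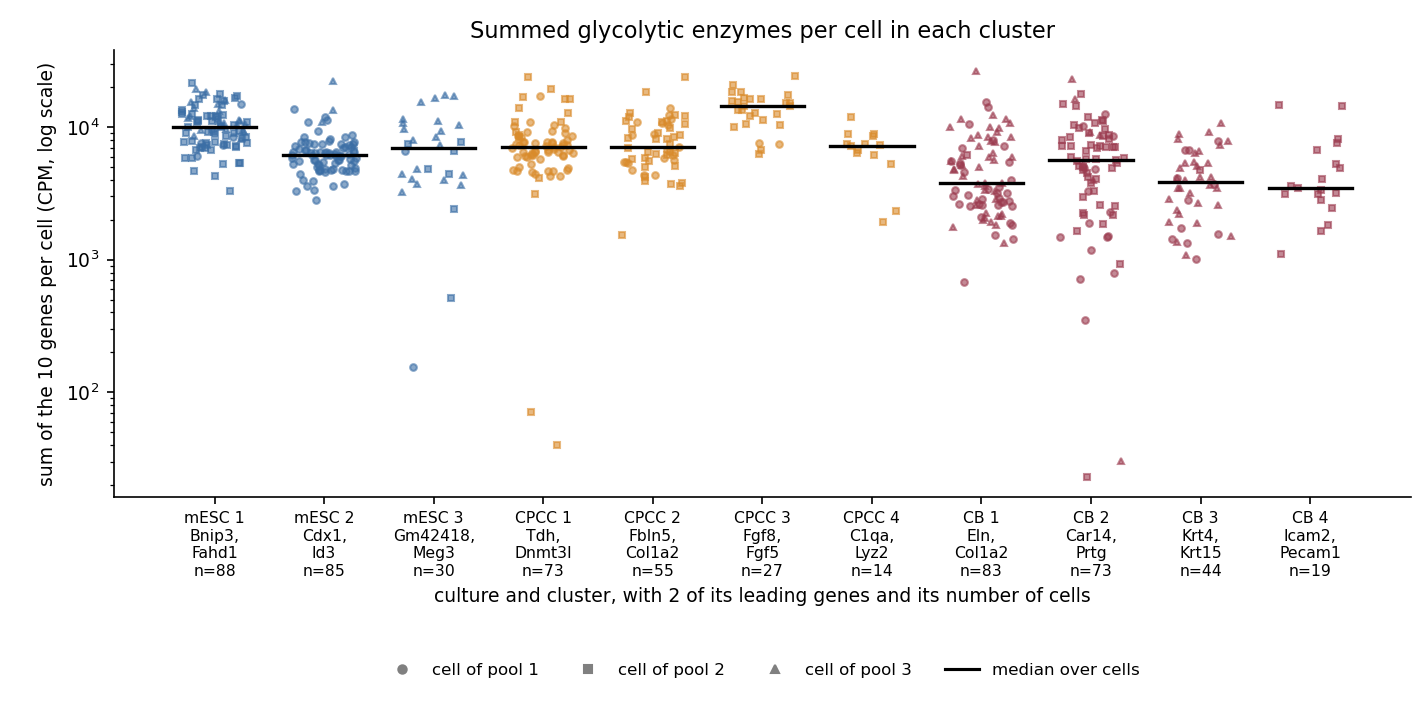
Sum of the 10 genes in each cell with at least 100000 counts (y axis, CPM, log scale) by cluster, where marker shapes show the pool and black bars the median over cells. The Fgf8 and Fgf5 cluster of CPCC was the highest (median 14401 CPM), mESC cluster 1 (10008 CPM) stood above mESC cluster 2 (6135 CPM), and CB cells spread over the widest range.

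Over the cells of each culture, the 10 genes varied together. As a description, Spearman's rho was taken between deviations of log2(CPM + 1) from the pool median. Its median over the 45 pairs of genes was 0.40 in mESC (203 cells), 0.42 in CPCC (169 cells) and 0.43 in CB (219 cells), whereas all pairs among genes with a count in 50% or more of the cells had medians of 0.07, 0.06 and 0.05. A rho of 0.3 or more was reached by 31, 30 and 32 of the 45 pairs, and by 0.741%, 5.07% and 0.629% of all pairs. The genes of all pairs were not matched in level to the 10, and Pfkp, found in 41.8% of CB cells, was itself below the 50% there. The closest pairs were Aldoa with Tpi1 in mESC (0.73), Gpi1 with Aldoa in CPCC (0.68) and Aldoa with Ldha in CB (0.70). The cells of a culture share library pools and depth, and the pools differed. The median was 0.29, 0.58 and 0.44 in the mESC pools, 0.19 and 0.56 in the CPCC pools, and 0.36, 0.42 and 0.43 in the CB pools. Taken within clusters and pools, it was 0.44, 0.36 and 0.43.

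Hk2 and Pfkp stood apart from the core of the pathway. The median rho of Hk2 with the other 9 genes was 0.19 in each of the 3 cultures, and that of Pfkp was 0.28, 0.12 and 0.27, while Aldoa reached 0.56, 0.58 and 0.52 and Ldha 0.53, 0.52 and 0.57. Pfkp and Pfkl, which serve the same step, had rho values of 0.19 in mESC, 0.06 in CPCC and 0.14 in CB. Hk2 and Pfkp were also the genes with the largest ratios between mESC and the other cultures. The median of Pfkl was 0.37, 0.42 and 0.38. Genes with and without ACGTG before a start were found among both the closer and the less close genes. Of those with it, Aldoa, Pgk1, Pgam1 and Ldha were closer to the others than Hk2. Of those without it, Gpi1 (0.46, 0.49 and 0.48), Tpi1 (0.54, 0.41 and 0.53) and Eno1 (0.54, 0.45 and 0.48) were closer than Pfkp. The part of low counts in the values of Hk2 and Pfkp was not tested.

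**Figure D5:**
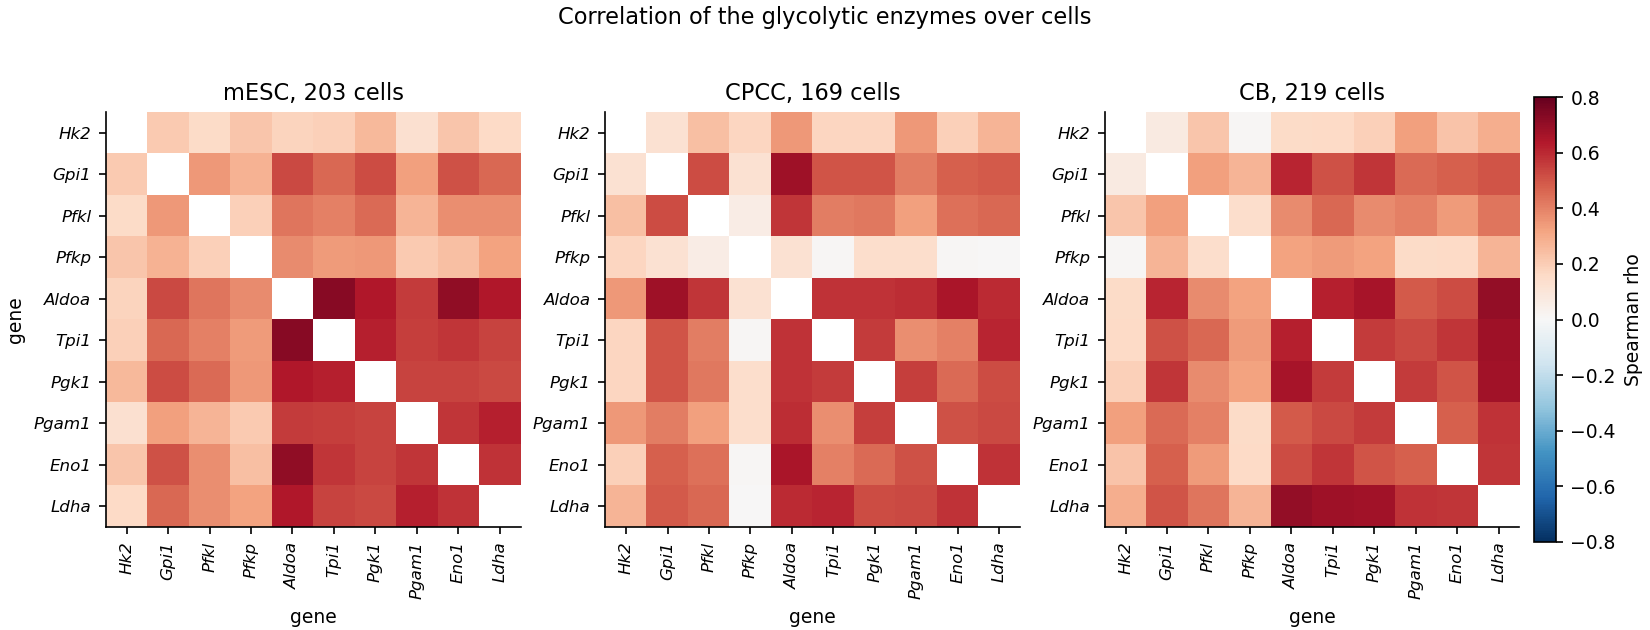
Spearman's rho over cells for each pair of the 10 genes (both axes list the genes in pathway order, color gives rho from -0.8 to 0.8, the diagonal is left white) in mESC, CPCC and CB. The block from Aldoa to Ldha was dark in all 3 cultures, while the rows of Hk2 and, in CPCC, of Pfkp were pale.

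The genes most like the sum of the 10 over cells were almost all copies of them. By the rule of the 5 highest rho values, they were Pgk1-rs7, Aldoart1, Eno1b, Gm5537 and Gm4735 in mESC (0.76 to 0.80), Gm9247, Gm5452, Aldoart1, Eno1b and Pkm in CPCC (0.73 to 0.80), and Gm9247, Gm5452, Aldoart1, Gm5537 and Ldha-ps2 in CB (0.75 to 0.85). Except for Pkm, all match the transcript of 1 of the 10 genes at 90% identity or more. How reads that match gene and copy were counted is not given in the sources used here, so their likeness cannot be taken as independent. Among the 25 highest, copies numbered 13, 13 and 14. The protein-coding genes that were not copies, picked after their values were seen, included Pkm, the pyruvate kinase (0.70, 0.73 and 0.63 in mESC, CPCC and CB), Gapdh, which serves the step before Pgk1 (0.60, 0.62 and 0.67), and Mif, a cytokine gene (0.59, 0.70 and 0.73). Bnip3 had 0.58, 0.52 and 0.64. At the other end, mt-Cytb, a mitochondrially encoded transcript, had -0.42, -0.41 and -0.30. Of the 5 lowest genes, 4 in mESC and 3 in CB were of the mitochondrial genome, whereas in CPCC the other four were Tmsb4x (-0.39), Nfic (-0.35), Marcks (-0.34) and Zfp36l1 (-0.33). CPM values share 1 total, and without mitochondrial genes in it the median rho of the 10 genes was 0.38, 0.41 and 0.42.

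Of the related lists, the sums of other glycolytic steps, transport and hypoxia-linked genes had the highest rho with the 10 genes over cells. The summed CPM of the list had a rho of 0.74, 0.76 and 0.66 for other glycolytic isozymes and steps, 0.57, 0.65 and 0.48 for glucose and lactate transport, and 0.55, 0.39 and 0.66 for hypoxia-linked genes in mESC, CPCC and CB. It was 0.30, 0.15 and 0.26 for pyruvate fate and gluconeogenesis, 0.14, 0.14 and 0.01 for the pentose phosphate pathway, -0.13, 0.01 and 0.08 for control of the phosphofructokinase step, and 0.01, 0.25 and -0.01 for transcription factors, beside a median over all genes compared of 0.09, 0.08 and 0.06. Such sums rest mainly on the most abundant genes of a list. In mESC, Pkm (2305 CPM) and Gapdh (572 CPM) held most of the 3210 CPM of the other glycolytic genes. Tigar held 208 of the 259 CPM of the phosphofructokinase list. The RNA of Hif1a itself had 0.05, -0.05 and 0.07. Against counts per cell the sum of the 10 had 0.08, -0.23 and 0.09. In CPCC the sum also went with G2M phase markers (0.37), pluripotent markers (0.38) and epithelial markers (0.40), values that were 0.09, 0.21 and 0.17 in mESC and -0.06, -0.05 and 0.03 in CB.

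Between cultures, Pkm, which makes the ATP of the last step, was at 2305, 1742 and 782 CPM in mESC, CPCC and CB, with a log2 ratio of -1.56 in CB against mESC. Of 9 other glycolytic genes tested between CB and mESC, 3 were lower by 2-fold (Pkm, Gapdh and Adpgk) and 2 higher, beside 17.1% and 21.0% of all genes. Gapdh (-1.10) came within 2-fold without CB pool 1 (-0.98) or CB pool 3 (-0.81). The higher ones were Bpgm, which makes bisphosphoglycerate (21.0 and 99.4 CPM in mESC and CB, log2 ratio 2.19), and Eno3 (1.69), which turned to -0.82 without CB pool 2. Between CPCC and mESC, 1 of 9 was lower (Hk1, within 2-fold without CPCC pool 1) and the same 2 were higher, beside 7.63% and 12.8% of all genes. Bpgm was then within 2-fold without CPCC pool 2, and Eno3 without CPCC pool 1. The glucose transporter Slc2a3 was at 410, 282 and 79.7 CPM (-2.35 in CB against mESC). The lactate transporter Slc16a1 was at 204, 164 and 98.5 CPM (-1.04, or -0.90 and -0.53 without CB pool 1 or 3), and Slc2a1 at 154, 224 and 165 CPM. Of 6 transport genes tested, 2 were lower by 2-fold in CB than in mESC and 1 in CB than in CPCC, beside 17.1% and 9.61% of all genes, and 0 were higher in any comparison, beside 11.9% to 21.0% of all genes. With single pools left out, up to 2 were higher in CB than in mESC (2 without mESC pool 3) and up to 1 in the other comparisons. One of them was Bsg, the partner protein of the lactate transporters, at 541 and 1061 CPM in mESC and CB (log2 ratio 0.97, or 1.39 without CB pool 2).

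Of the genes that act on the phosphofructokinase step, 2 of 4 tested in CPCC and 2 of 3 tested in CB were lower than in mESC by 2-fold, beside 7.63% and 17.1% of all genes. Tigar, a phosphatase that removes the activator of the step, was at 208, 68.5 and 6.81 CPM in mESC, CPCC and CB (-4.74 in CB against mESC). In CPCC its log2 ratio was -1.59, or -0.85 without pool 2. Fbp2, which runs the step backwards, was at 29.5, 1.39 and 2.15 CPM. Pfkfb3, which makes that activator, was low in all 3 (7.69, 5.56 and 15.4 CPM) and 1.32 log2 units higher in CB than in CPCC, or 0.74 without CB pool 3. Of 6 pentose phosphate genes tested between CB and mESC, 3 were lower by 2-fold (Rpe -1.50, Taldo1 -1.26 and Tkt -1.15) and 0 were higher, beside 17.1% and 21.0% of all genes. Taldo1 (without CB pool 2) and Tkt (without CB pool 3) came within 2-fold. Of 13 genes of pyruvate fate and gluconeogenesis, 4 were lower and 1 was higher, beside the same shares. The lower ones included Dlat (-1.18) and Pdhb (-1.15), subunits of pyruvate dehydrogenase, and Pck2 (-1.17). Dlat (-0.98) and Pck2 (-0.99) came within 2-fold without CB pool 3, whereas Pdhb stayed past it without any single pool. Pdp2, which activates that enzyme complex, was lower in CPCC than in mESC (-1.83).

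Of the hypoxia-linked genes, 6 of 13 tested were higher by 2-fold in CB than in CPCC, beside 11.9% of all genes, 0 were lower and their median log2 ratio was 0.92. Against mESC the list was mixed, with 3 of 14 higher and 3 lower in CPCC (beside 12.8% and 7.63% of all genes) and 4 of 13 higher and 1 lower in CB (beside 21.0% and 17.1%). These counts depended on the pools. Without CB pool 3, 2 were higher and 3 lower in CB than in mESC, and without CPCC pool 2, 2 were higher and 5 lower in CPCC. The count of higher genes between CB and CPCC was 1 without CB pool 3 and 11 without CPCC pool 2. The hypoxia-linked sum was 1900, 928 and 2474 CPM in the CB pools and 718 and 1312 CPM in the CPCC pools, so the pools overlapped. Fibroblast-like cells of CB, which were rare in CB pool 2, held 2666 CPM beside 828 to 1521 CPM in the other clusters. Vegfa, the endothelial growth factor, was at 41.6, 17.7 and 104 CPM in mESC, CPCC and CB (2.49 in CB against CPCC), and Ankrd37 at 37.9, 7.43 and 22.1 CPM (1.45, or 0.96 without CB pool 3). The prolyl hydroxylase of collagen P4ha2 was at 8.0, 61.9 and 74.8 CPM, and Adm, a vasoactive peptide, at 6.41 CPM in mESC and 47.6 CPM in CPCC. Of the transcription factors, Myc was at 3.74, 58.5 and 20.3 CPM (3.65 in CPCC against mESC), Mycn at 86.3, 99.5 and 40.7 CPM, and Esrrb at 134, 35.0 and 0.112 CPM. Hif1a was at 68.2, 137 and 118 CPM, which put CPCC at the 2-fold threshold against mESC (log2 ratio 0.99), and its CPCC pools (114 and 157 CPM) lay above its mESC pools (80.7, 72.2 and 49.3 CPM).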

How the data were processed

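Single cells were captured on the Fluidigm C1 system and sequenced as full-length cDNA (SMART-Seq v4) by the study, without molecular identifiers. Reads were aligned by the authors with STAR 2.7 to mm10 (GRCm38) in Partek Flow. The CPCC table as deposited holds whole counts per gene and cell. The mESC and CB tables as deposited by the authors hold estimated counts, of which 32.0% and 34.6% of values above 0 were not whole, and these were rounded for intervals, thinning, clustering and scaling factors. Left out of the CPCC table were 208 rows without a gene, 23 symbols turned into dates (0.139% of counts) and 2 columns of no sample. Each table lists only genes that reach 1 count in some cell.

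Levels are counts summed over cells, scaled to a total of 1000000 gene counts (CPM), and log2 ratios use CPM + 1. With 1 sample per culture no test was made. A gene was called past 2-fold. Per-cell values use cells with at least 100000 counts (203 mESC, 169 CPCC and 219 CB), and thinned values 430000 counts (193, 157 and 210). Intervals are exact (Poisson or Clopper-Pearson, 95%) and cover counting error only. Lengths are of the longest principal transcript in GENCODE M21, copies were found with blastn 2.17.0, and promoters are from RefSeq. Clusters came from Seurat 5.3.0 (counts per cell regressed out, 10 components, resolution 0.6), and scaling factors from edgeR 4.0.16 (TMM) and DESeq2 1.42.0. Doublets were not removed. The computation of 2-fold calls was checked on simulated counts. Columns were matched to samples by the culture that each table is named for.

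The genes and lists were chosen with earlier results of these data known. Named were all 10 members, up to 4 genes of each list with the largest ratio past 2-fold, other isozymes, and the 5 genes most alike over cells in each culture. Beyond that rule, Gapdh, Mif, Bnip3, Bsg, Slc2a1, Hif1a and the genes least alike over cells were named after their values were seen. Alternatives were other scalings, pseudocounts, thresholds, cell filters, clusterings and leaving out pools. Added after seeing the data were sums with copies, totals without mitochondrial genes, deviations within clusters, and related genes without single pools.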

Additional observations from a re-analysis of the deposited data

How the results depend on the processing

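No paired analysis was possible because each culture is 1 sample, the pool numbers do not pair the cultures and no test was made. The median log2 ratio kept its sign under every alternative run, from other scalings, pseudocounts of 0.1 and 10 CPM, cell filters and equal cell weights to sums with copies. Leaving out 1 pool at a time gave -0.61 to -0.15 for CPCC against mESC, -1.02 to -0.71 for CB against mESC and -0.60 to -0.38 for CB against CPCC. The number of the 10 genes past 2-fold was 2 to 2, 3 to 5 and 1 to 1 in those runs. At a threshold of 1.5-fold it was 4, 6 and 3. Without the detection filter 20272, 19855 and 20995 genes were compared in the order of the comparisons above, in place of 12822, 11695 and 11428.

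The median rho over cells ranged from 0.34 to 0.52 in mESC, 0.19 to 0.56 in CPCC and 0.37 to 0.47 in CB when 1 pool was left out. In CPCC it was 0.19 without pool 2, so the value of that culture rested on pool 2. In CB it was 0.33 with Pearson's r. The median share of cells with a gene was 100% in mESC and 95.7% in CB after thinning, which also leaves out shallow cells. Clustering without leaving out the 10 genes, their copies and the related genes made 1 mESC cluster highest for 10 in place of 6. The cells were then grouped in part on these genes. Over all alternatives of the medians, counts, shares and correlations of the 10 genes, 104 of 115 values stayed within the spread of single pools (counts within 1.5-fold) and 11 moved past it, with none reversed. The related lists also depended on single pools. Of 151 counts of their genes past 2-fold with 1 pool left out, 45 moved by over 1.5 times, and 31 of 56 calls of related genes came within 2-fold in some such run. Of 305 ratios of these genes, 12 moved past the spread of single pools and 1 turned its sign. Eno3 in CB against mESC ranged from -0.82 (without CB pool 2) to 2.42 when 1 pool was left out, and no other gene past 2-fold changed its sign in such runs. With no replicate cultures, the precision of each comparison cannot be given.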
